A study of Mus musculus with 18 samples.

Results

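The comparison described here is between Camk4 mutant mice and their control littermates 1 hour after an injection of cocaine, measured in the dissected striatum. It uses 12 of the 18 arrays of the series, 6 mutant and 6 control, chosen by their titles. The arrays carry animal numbers in either Arabic or Roman numerals, and each numbering series holds 3 mutant and 3 control animals. Arrays were compared within each numbering series, which share no array, and then together with the numbering series as a term in the model. The remaining 6 arrays, 3 mutant and 3 control animals injected with saline and numbered in Arabic numerals, enter none of these fits and serve as independent measurements of the same genotypes.

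Mice of both genotypes were 10 to 20 weeks old, caged singly and handled for 5 days before the injection. The cocaine groups received 25 mg/kg intraperitoneally, and the striatum with the nucleus accumbens was cut from vibratome slices. Each array holds the RNA of 1 animal, hybridised to an Affymetrix mouse array and summarised by the authors as GCRMA log2 expression values per probe set. The strain of the mice, the mutant allele and the promoter or cell type that drives the mutation were not given in the sources used here. The groups rest on the sample titles, because the free-text description attached to each cocaine array names another group than its title does. In tissue of mixed cells, fewer cells of a type and less RNA per cell cannot be told apart.

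Camk4 encodes CaMKIV, a kinase switched on by calcium-bound calmodulin and found largely in the nucleus of neurons, where it phosphorylates the transcription factor CREB and its coactivators. CREB binds the cAMP response element, and many genes that neurons switch on within an hour of strong stimulation carry that element near their start site. Cocaine raises extracellular dopamine in the striatum and induces such immediate early genes in medium spiny neurons, the projection neurons that make up most of this tissue.

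Of the probe sets on the array, 12604 lay above a log2 value of 4 in at least 3 of the 12 cocaine arrays and were tested, and they represent 7548 genes. The 5 shared medium spiny neuron markers on the array were all measured above the floor, and their mean lay between 12.4 and 12.8 on the log2 scale in all cocaine arrays. Of 5 markers of cortical glutamatergic neurons on the array, 4 did not pass the floor, and Tbr1 lay between 3.02 and 4.48. One array stands apart. In the mutant numbered III, the difference between the 3′ and 5′ probe sets of beta-actin, which widens as RNA is degraded, was 3.59, against 1.57 to 1.91 in the other Roman-numbered arrays. Its mean correlation with the other arrays was 0.965, and that of each other array was between 0.975 and 0.988. The differences and counts the comparison turns on are given with and without it. The numbering series also differed, with actin differences of 2.14 to 2.55 in the Arabic-numbered cocaine arrays, above every Roman-numbered array but III. The mean Gapdh differences were 0.07 and 0.06 in Arabic-numbered controls and mutants. They were -0.30 in Roman-numbered controls and -0.27 in Roman-numbered mutants without III. The part of RNA quality in differences between the series was not tested.

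Camk4 itself was lower in mutant than in control arrays, but by a modest amount. Its brighter probe set stood at 7.54, 7.62 and 7.52 in the Arabic-numbered controls and at 7.23, 7.29 and 7.24 in the mutants. In the Roman-numbered arrays it stood at 7.76, 7.74 and 7.72 in controls and at 7.30, 6.85 (III) and 7.69 in mutants. After saline it was at 7.72, 7.59 and 7.64 in controls and at 7.29, 7.14 and 7.47 in mutants. Within every set of 3 against 3 the genotypes did not overlap, although the mutant at 7.69 lay just under the lowest control of its series. The pooled difference was -0.39 ± 0.11 (SE, 6 against 6), a 1.31-fold lower level, with an exact permutation p of 0.005 (two-sided, genotype relabelled within numbering series), the smallest that the 400 relabellings can give. Without mutant III the difference was -0.28 ± 0.07, or 1.21-fold, again with an exact permutation p of 0.005. In limma's test across all probe sets the adjusted p was 0.594, and 0.738 without mutant III.

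A second Camk4 probe set was dimmer and differed between the numbering series in level. Its values were 5.48, 5.47 and 5.46 in Arabic-numbered controls against 5.15, 5.17 and 4.95 in mutants, and 7.00, 6.21 and 6.09 in Roman-numbered controls against 6.10, 3.80 (III) and 6.06 in mutants. The pooled difference was -0.75 ± 0.36 (exact permutation p = 0.01) and -0.37 ± 0.14 without mutant III (exact permutation p = 0.03). The Roman-numbered genotypes overlapped here, at 6.09 and 6.10. The remaining Camk4 probe set stayed at background on every array and was not tested. Where these probes lie relative to the mutated part of the gene is not given, so a remaining signal says nothing about remaining protein.

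**Figure D1:**
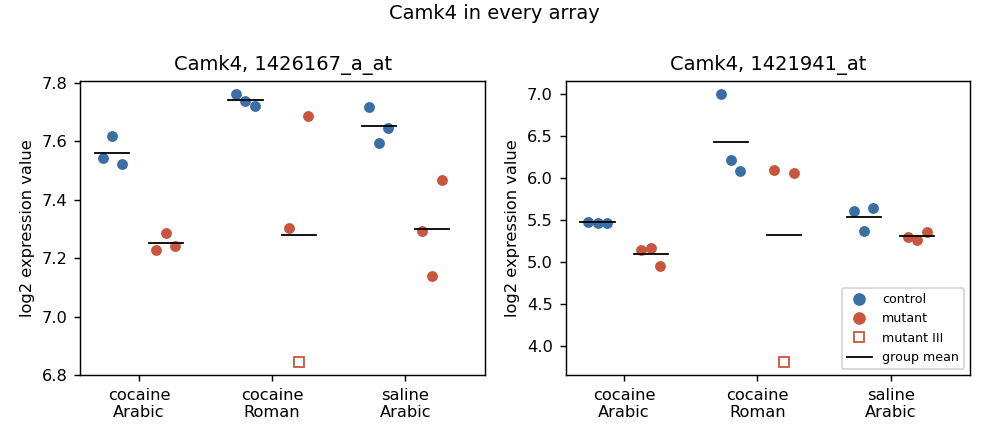
Log2 expression values of 2 Camk4 probe sets (y axis) in all 18 arrays, by treatment and numbering series (x axis). Points are animals, controls in blue and mutants in red, the open square is mutant III and the short lines are group means. For the brighter probe set (left) the mutants sit below the controls in each of the 3 sets of arrays, and for the dimmer one (right) mutant III lies far below the rest at 3.80.

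No probe set passed an adjusted p of 0.05 when the 12 cocaine arrays were fitted together (limma, Benjamini-Hochberg, 0 of 12604, 0%). The smallest adjusted p was 0.204, and it was 0.0633 without mutant III, where also 0 passed. At an unadjusted p below 0.05 there were 954 probe sets (7.57%), 507 higher (4.02%) and 447 lower (3.55%) in the mutant. Without mutant III there were 853 (6.77%), 388 higher (3.08%) and 465 lower (3.69%). The differences below are therefore descriptions of means and their errors, with the unadjusted p where it is used, and "higher" or "lower" places the mutant mean against the control mean. The median standard error of a pooled difference was 0.0958 on the log2 scale.

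Each numbering series gave its own picture. In the Arabic-numbered arrays 785 probe sets (6.23%) had an unadjusted p below 0.05, 322 higher (2.55%) and 463 lower (3.67%). The Roman-numbered arrays gave 574 (4.55%), 339 higher (2.69%) and 235 lower (1.86%), and without mutant III 681 (5.4%), 314 higher (2.49%) and 367 lower (2.91%). At an adjusted p of 0.05 the Arabic-numbered arrays gave 1 probe set (0.00793%) and the Roman-numbered arrays 0 (0%), with a smallest adjusted p of 0.675 in limma. A test of whether the genotype difference itself differed between the numbering series gave 0 (0%) at an adjusted p of 0.05 and 559 (4.44%) at an unadjusted p of 0.05, 2.45% with the Roman-numbered difference above and 1.98% with it below the Arabic-numbered one. Without mutant III it gave 695 (5.51%, split into 2.79% and 2.72%), and the smallest limma adjusted p values were 0.847 and 0.875. Among the genes of smallest p in that test were Myh9, a non-muscle myosin heavy chain (0.71 ± 0.15, Roman minus Arabic), and Col4a2, a basement membrane collagen (0.84 ± 0.18).

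The 1 probe set called in the Arabic-numbered arrays belongs to Tmem87a, which encodes a membrane protein of the Golgi, and the call was lost when both series shared 1 fit (0 called, smallest limma adjusted p = 0.722). It rose by 4.48 ± 0.13 in the mutants of that series (limma adjusted p = 1.36e-05), from 3.43, 3.03 and 3.13 in controls to 7.67, 7.64 and 7.74. The Roman-numbered arrays did not repeat this, with 7.42, 2.94 and 7.44 in controls and 3.42, 7.61 (III) and 3.42 in mutants (-1.12 ± 1.64). After saline the controls stood at 7.68, 7.73 and 7.62 and the mutants at 7.74, 7.56 and 2.91. On every array the probe set was thus either bright or near background, in both genotypes and both treatments, and the pooled difference was 1.68 ± 1.17. What sets the state of an array was not tested.

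The question that the design allows beyond either series is which genes differed the same way in both. With the same sign and an unadjusted p below 0.05 in each series there were 21 probe sets (0.167%), 11 higher (0.0873%) and 10 lower (0.0793%). Read against the background, 11 of the 339 probe sets higher in the Roman-numbered arrays were also higher in the Arabic-numbered ones, 3.24% against 2.55% of all probe sets, and 10 of the 235 lower ones were also lower, 4.26% against 3.67%. The agreement by count was therefore near what all probe sets show. Without mutant III there were 25 (0.198%), 12 higher (0.0952%) and 13 lower (0.103%), of which 17 were shared with the 21, or 81% of the first list and 68% of the second. Across all 12604 probe sets the 2 series had the same sign for 58% and correlated with r = 0.16, or 52% and 0.0203 without mutant III. Those correlations are across probe sets of the same 12 arrays, which are not independent replicates, and are given as a description.

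**Figure D2:**
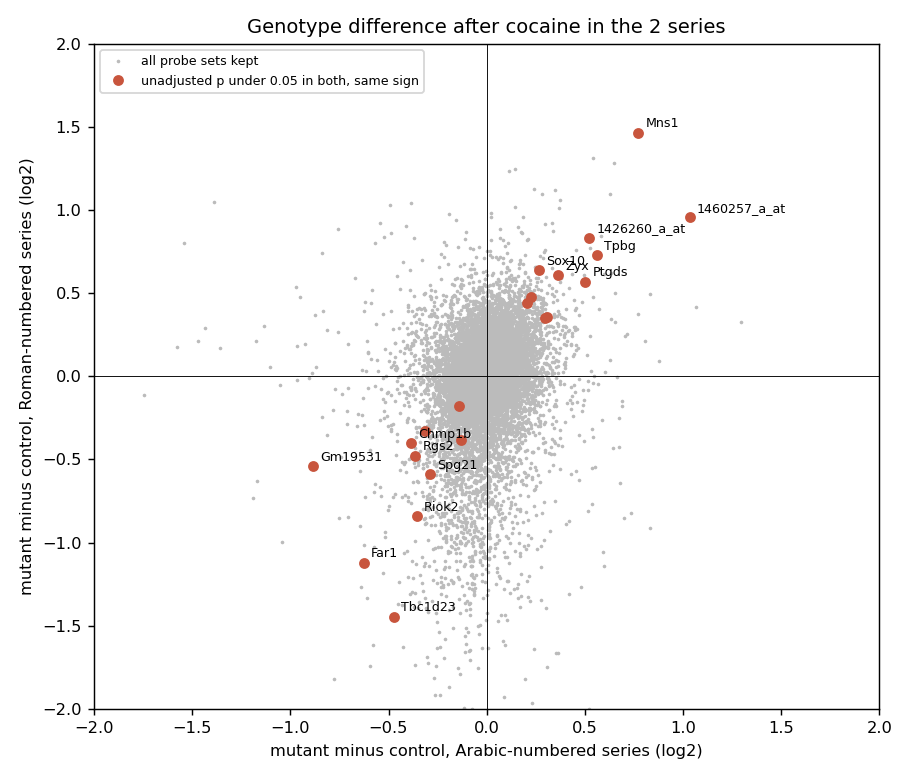
Mutant minus control difference after cocaine (log2) in the Arabic-numbered arrays (x axis) against that in the Roman-numbered arrays (y axis), 1 point for each of 12604 probe sets, with the 21 agreeing probe sets in red and 15 probe sets outside the axes not drawn. The grey cloud reaches farther below 0 than to either side and has little tilt (r = 0.16), and the red points lie in the lower left and upper right corners by their definition.

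The saline arrays were used neither to find nor to test these genes. Of the 21 agreeing probe sets, 17 had the same sign of the genotype difference after saline, 81%, against 55.6% of all probe sets for the sign in the Arabic-numbered arrays and 58.4% for that in the Roman-numbered arrays. Among the 954 probe sets with a pooled unadjusted p below 0.05, the same sign was seen for 66.4%. Without mutant III it was 20 of 25, or 80%. Of the 21, 3 had both the same sign and an unadjusted p below 0.05 after saline, where 3.25% of all probe sets were higher and 2.86% lower at such a p, 6.12% together, and 8.07% of those 954 had both. They were Spg21, Rgs2 and the predicted gene Gm19531.

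Among the genes lower in mutants of both series, Spg21 differed with the least overlap. It encodes maspardin, a protein of the endosomal and trans-Golgi compartments. Its probe set stood at 9.15, 9.19 and 9.15 in Arabic-numbered controls against 8.71, 8.98 and 8.95 in mutants, and at 9.20, 9.33 and 9.03 in Roman-numbered controls against 8.67, 8.42 (III) and 8.71 in mutants. After saline the controls were at 9.17, 9.17 and 9.30 and the mutants at 8.94, 8.95 and 8.92. All 9 mutant arrays lay below all 9 control arrays. It was the only 1 of the 12604 probe sets (0.00793%) to separate the genotypes downward in this way, and 0 separated them upward (0%), a count chosen after the values were seen. The pooled cocaine difference was -0.44 ± 0.09 (limma adjusted p = 0.435), -0.38 ± 0.07 without mutant III, and the saline difference -0.28 ± 0.06.

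Rgs2 encodes a GTPase-activating protein that shortens signalling by G proteins, mainly of the Gq class, and it is itself induced by neuronal activity. The agreeing probe set read 11.56, 11.49 and 11.75 in Arabic-numbered controls against 11.08, 11.13 and 11.50 in mutants. The Roman-numbered values were 11.81, 11.94 and 11.85 against 11.45, 11.00 (III) and 11.71. After saline they were 11.54, 11.15 and 11.24 in controls and 10.89, 10.87 and 11.14 in mutants. Mutants and controls overlapped in the Arabic-numbered set at 1 pair of nearly equal arrays and did not overlap in the other 2 sets. The differences were -0.42 ± 0.11 pooled, -0.33 ± 0.08 without mutant III and -0.35 ± 0.11 after saline. The brighter Rgs2 probe set gave -0.24 ± 0.05 pooled, -0.31 ± 0.04 in the Arabic-numbered and -0.17 ± 0.07 in the Roman-numbered arrays, and -0.23 ± 0.08 after saline, so the lower level was seen with both probe sets and under both treatments.

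Riok2, a kinase needed for maturation of the small ribosomal subunit, was separated by genotype in the Roman-numbered arrays. Controls there were at 7.11, 7.09 and 6.89 and mutants at 6.32, 6.11 (III) and 6.13, with no overlap, whereas the Arabic-numbered values of 6.72, 6.73 and 6.41 against 6.49, 6.11 and 6.19 overlapped. The pooled difference was -0.60 ± 0.12 and -0.55 ± 0.11 without mutant III. Chmp1b, a subunit of the ESCRT-III membrane remodelling complex, stood at 8.00, 8.16 and 7.87 against 7.64, 7.67 and 7.56 in the Arabic-numbered arrays and at 8.73, 8.45 and 8.69 against 8.25, 8.06 (III) and 8.36 in the Roman-numbered ones. Its pooled difference was -0.39 ± 0.08 (-0.36 without mutant III), with no overlap in either cocaine series, but -0.06 after saline. Its second probe set was at -0.27 in the Arabic-numbered arrays and at 0.01 in the Roman-numbered arrays, so the 2 probe sets disagree.

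Far1, which encodes a fatty acyl-CoA reductase of ether lipid synthesis, had the smallest adjusted p once mutant III was left out. Its agreeing probe set was at 5.77, 5.71 and 5.54 in Arabic-numbered controls against 5.07, 5.08 and 4.98 in mutants, and at 6.60, 6.51 and 6.39 in Roman-numbered controls against 5.98, 4.29 (III) and 5.87 in mutants. The groups did not overlap, and mutant III lay far below the others. The difference was -0.87 ± 0.25 with it (limma adjusted p = 0.594) and -0.60 ± 0.08 without it (limma adjusted p = 0.0633). After saline the difference was -0.00, and 3 other Far1 probe sets gave -0.18, 0.06 and -0.17 in the Arabic-numbered arrays and -0.07, -0.37 and 0.21 in the Roman-numbered ones.

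The other lower genes of the agreement varied in size, and some rested on 1 of several probe sets. Hnrnpc, an RNA-binding protein of the pre-mRNA particle, was at -0.32 ± 0.08 (-0.30 without mutant III) and its other probe set at -0.02 and -0.01 in the 2 series. Cdc42, a small GTPase that organises actin filaments, was at -0.16 ± 0.04 (-0.15 without mutant III), with other probe sets near 0 in the Arabic-numbered arrays. Ube2b, a ubiquitin-conjugating enzyme, was at -0.26 ± 0.08, and -0.18 without mutant III. Tbc1d23, a Golgi tethering protein, was at -0.96 ± 0.29 and -0.70 without mutant III. Its values of 3.60 in an Arabic-numbered mutant and 3.36 in mutant III lay below the floor of 4. After saline Hnrnpc was at -0.19, Ube2b at 0.01, Cdc42 at 0.08 and Tbc1d23 at 0.10. Gm19531 was at -0.71 ± 0.19, at -0.83 without mutant III, and at -0.41 ± 0.17 after saline.

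Among the genes higher in mutants of both series, Mns1 had the largest difference of those with 1 gene symbol. It encodes a filament protein of flagella and motile cilia, and its level was low. The Arabic-numbered controls read 4.15, 3.46 and 4.06 and the mutants 4.63, 4.97 and 4.39. The Roman-numbered controls read 3.32, 3.05 and 2.78 and the mutants 4.12, 4.70 (III) and 4.73. The genotypes did not overlap in either series, and the difference of the log2 means was 1.12, or 1.04 without mutant III. All 6 mutants but only 2 of 6 controls exceeded the floor of 4, so Mns1 was kept through the mutants, and the size is measured against controls near background. After saline the difference had the other sign, -0.15 ± 0.23, with controls at 4.68, 3.74 and 4.10 and mutants at 4.14, 4.05 and 3.87. Of the other measured genes of cilia and flagella, 0 were higher at an unadjusted p of 0.05 and 2 were lower, Cfap36 (-0.17 ± 0.07) and Ift81 (-0.18 ± 0.08), where 345 of all 7548 genes were higher and 217 lower. Without mutant III Cfap36 was at -0.11 and Ift81 at -0.17, with 1 of them below that p. The ependymal markers above the floor, Rsph1 and Foxj1, were at 0.29 ± 0.17 and -0.02 ± 0.13, and their mean lay between 5.01 and 5.50 in mutants and between 4.92 and 5.38 in controls after cocaine. The part of ependymal tissue in the Mns1 difference was not tested.

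Zyx encodes zyxin, a focal adhesion protein bound to actin filaments. It was at 4.51, 4.29 and 4.36 against 4.84, 4.64 and 4.76 in the Arabic-numbered arrays and at 4.16, 4.25 and 4.01 against 4.70, 4.87 (III) and 4.67 in the Roman-numbered ones, without overlap. Its pooled difference was 0.49 ± 0.09, and 0.45 ± 0.09 without mutant III. Srebf1, the transcription factor that drives fatty acid synthesis genes, was at 7.99, 8.31 and 8.25 against 8.54, 8.45 and 8.47, and at 7.79, 7.90 and 8.12 against 8.37, 8.27 (III) and 8.23, again without overlap, with 0.33 ± 0.07 pooled and 0.33 ± 0.08 without mutant III. After saline Zyx was at 0.27 and Srebf1 at 0.17, both in the same direction.

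Klf13, a zinc finger transcription factor, was at 9.21, 9.35 and 9.31 against 9.53, 9.41 and 9.55 in the Arabic-numbered arrays and at 8.77, 8.83 and 8.94 against 9.21, 9.38 (III) and 9.28 in the Roman-numbered ones. The pooled difference was 0.32 ± 0.06 (0.29 without mutant III), and after saline it was 0.00. A second Klf13 probe set gave 0.00 and 0.51 in the 2 series, so only the Roman-numbered difference was seen with both. Tpbg, a leucine-rich repeat membrane glycoprotein that curbs Wnt signalling, was at 0.65 ± 0.15 pooled, 0.73 without mutant III and 0.44 after saline, and its other probe set was higher in both series as well, by 0.37 and 1.06. The remaining higher ones with 1 symbol outside the oligodendrocyte genes were Capn15, a calpain family protease, at 0.35 ± 0.10 (0.26 without mutant III) and Zbtb45, a zinc finger protein, at 0.32 ± 0.08 (0.33 without mutant III). A pair of probe sets with several gene symbols, which are not named, were at 1.00 ± 0.14 and 0.68 ± 0.14 (0.99 and 0.62 without mutant III), and the first of them had the smallest adjusted p of the pooled comparison (limma, 0.204).

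**Figure D3:**
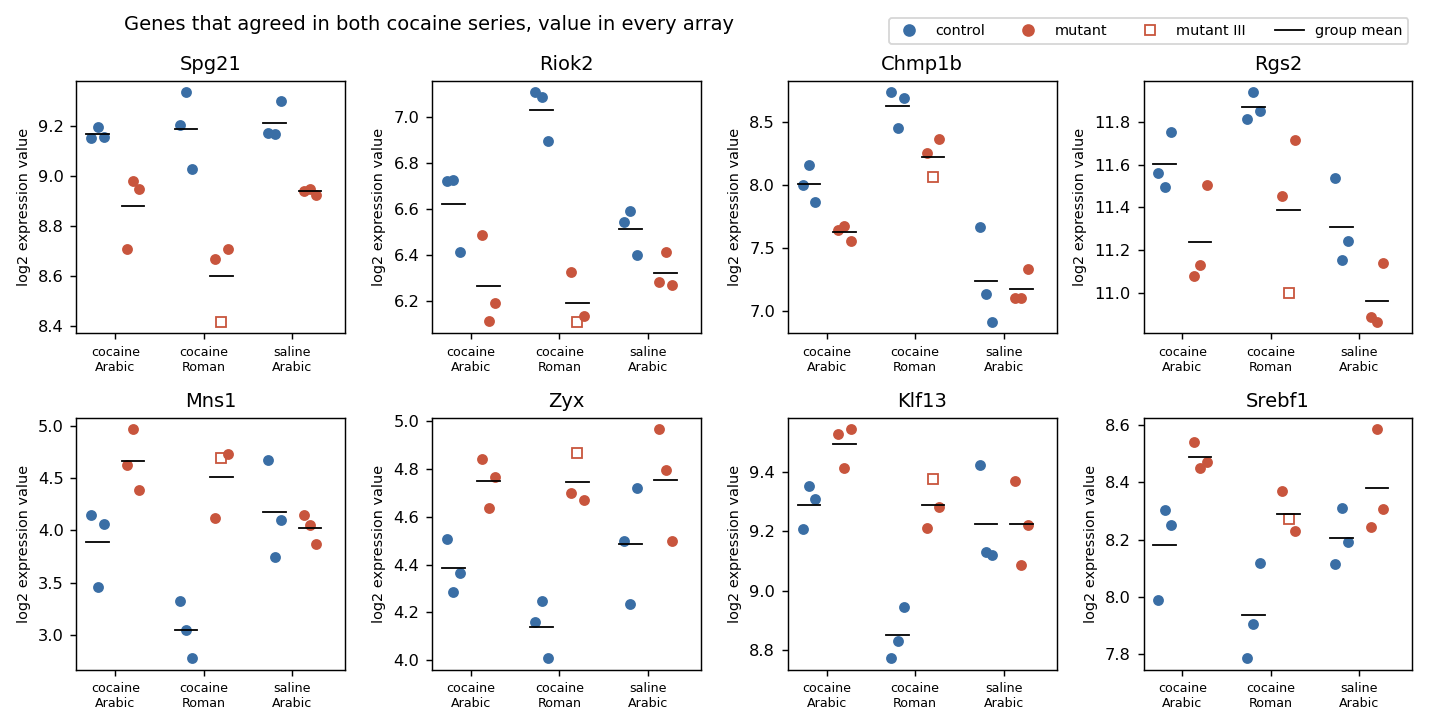
Log2 expression value (y axis) in each of the 18 arrays for 4 genes lower (top) and 4 higher (bottom) in mutants of both cocaine series, by treatment and numbering series (x axis), with controls in blue, mutants in red, mutant III as an open square and group means as lines. Spg21 and Rgs2 have lower mutant means after saline too (-0.28 and -0.35), whereas Chmp1b, Mns1 and Klf13 are at -0.06, -0.15 and 0.00 there.

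Sox10, the transcription factor of oligodendrocytes, was at 0.45 ± 0.14 with mutant III and 0.34 without it. Ptgds, the prostaglandin D synthase made by oligodendrocytes, choroid plexus and meninges, was at 11.75, 12.16 and 11.47 against 12.04, 12.45 and 12.39 in the Arabic-numbered arrays and at 11.70, 11.70 and 11.48 against 12.69, 12.14 (III) and 11.75 in the Roman-numbered ones. Its pooled difference was 0.54 ± 0.15, also 0.54 without mutant III, and 0.09 after saline. Of 7 measured oligodendrocyte markers, 0 had a pooled unadjusted p below 0.05 in either direction and the median was 0.08 (0.03 without mutant III). Below control were 0 of the 7 pooled, 2 in the Arabic-numbered and 0 in the Roman-numbered arrays, beside 3131, 3623 and 2903 of all 7548 genes. Without mutant III 1 was below control pooled and 4 in the Roman-numbered arrays, beside 3517 and 3499. The mean of the list was 12.0 in mutant III and 11.5 to 11.7 in the other Roman-numbered mutants. Ttr, the defining choroid plexus transcript and the single marker of that list above the floor, lay at 4.67 to 5.29 in Roman-numbered mutants against 3.09 to 4.18 in controls, and at 2.26 to 5.23 against 2.32 to 3.58 in the Arabic-numbered arrays. Most controls were thus below the floor of 4, and no difference is drawn from it. The part of these cell types in Sox10 and Ptgds was not tested.

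Some agreements turned on mutant III. Sox10, Ube2b, Ptgds and Capn15 left the list without it. The genes that joined it were Trip4, Bhlhe40, Gja1, Slc25a23, Pglyrp1, Stag1, Usp3 and Ttc19. Pglyrp1 lay near background, at 3.14 to 4.46 in controls and 3.78 to 5.18 in mutants, and like Mns1 was kept through the mutants. Gja1, the gap junction protein of astrocytes, was at -0.65 ± 0.16 without mutant III, which read 3.52 against 5.96 and 6.32 in the other Roman-numbered mutants. This is a dimmer Gja1 probe set. The brightest one had no unadjusted limma p below 0.05 in the pooled comparison, with or without mutant III. Stag1, a cohesin subunit, was at 0.58 ± 0.13 without it and at 0.28 with it, since it read 4.98 against 6.71 and 7.07. When each of the 12 arrays was left out in turn, Mns1, Spg21 and a pair of probe sets with several gene symbols agreed between the series every time, and Zyx and Chmp1b did so 10 times.

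A looser description, with no overlap between genotypes, gave 767 probe sets higher (6.09%) and 763 lower (6.05%) in the Arabic-numbered arrays. Among the Roman-numbered ones 996 were higher (7.9%) and 900 lower (7.14%). The counts at an unadjusted p below 0.05 were smaller, 322 and 463 in the Arabic-numbered and 339 and 235 in the Roman-numbered arrays. After saline 904 were higher (7.17%) and 574 lower (4.55%). Both series had no overlap in the same direction for 61 higher (0.484%) and 71 lower (0.563%), beside 59 in opposite directions (0.468%). Of the 996 Roman-numbered higher ones 6.12% were also higher in the Arabic-numbered arrays, against 6.09% of all probe sets, and of the 900 lower ones 7.89%, against 6.05%. Only 15 probe sets (0.119%) were free of overlap in the same direction in both cocaine series and after saline, among them the brighter Camk4 probe set, Spg21, Oaz2 (an antizyme that limits polyamine synthesis), Gnai2 (an inhibitory G protein subunit), Cacna1h (a T-type calcium channel subunit) and Plppr2.

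Several of these genes share a chromosome. Of the 15, 13 have a chromosome in the RefSeq table and 4 are on chromosome 9 (Spg21, Oaz2, Plppr2 and Gnai2), which holds 5.45% of the placed probe sets. Of these 4, only Spg21 and Oaz2 lie in the stretch of that chromosome described below. Spg21, Mns1, Gm19531 and Tpbg, 4 of 19 placed agreeing probe sets, lie on chromosome 9, and 7 do so without mutant III. At an unadjusted p below 0.01 in the pooled comparison stood 17 of 636 probe sets of chromosome 9, or 2.67%, against 0.824% elsewhere. Without mutant III it was 3.93%, against 1.01% elsewhere. In the Roman-numbered arrays the share was 2.04%, the highest of any chromosome. In the Arabic-numbered arrays it was 1.42%, below chromosomes 2 (1.99%), 1 (1.66%), X (1.61%) and 14 (1.44%). After saline it was 1.57%, below chromosomes 19 (1.74%) and 17 (1.65%).

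Along the gene order of chromosome 9, the differences gathered between Spg21 and Tpbg, a stretch bounded after the values were seen and given without a test. Its ends are the first and last agreeing genes of the chromosome. Its 4 agreeing probe sets are therefore counted after cocaine by that rule, which raises the cocaine shares below. It holds 92 tested probe sets of 61 genes, and 19 of them (20.7%) had an unadjusted p below 0.05, 7 higher and 12 lower, against 7.45% elsewhere and 8.27% on the rest of chromosome 9. Without mutant III it was 22 (23.9%) against 6.59%. The share was 17.4% in the Arabic-numbered arrays, 10.9% in the Roman-numbered arrays and 16.3% there without mutant III. After saline 14 of the 92 (15.2%) had such a p, against 6.02% elsewhere, and 17 of the 19 kept their sign (89.5%), against 65.6% of the other probe sets with such a p. In order from Spg21, the genes included Oaz2 (-0.18 ± 0.05), Trip4 (-0.29), Usp3 (0.29), Car12 (-0.44), Lactb (-0.29), Anxa2 (0.34), Cgnl1 (-0.58), Mns1 (1.12), Gm19531 (-0.71), Gclc (-0.20), Elovl4 (-0.25), Ibtk (-0.32) and Tpbg (0.65). Differences of both signs alternated along it. Arpp19 was counted on both sides, at -0.27 and 0.16 by different probe sets, and Tpbg was counted by both of its probe sets. In windows of 40 consecutive probe sets, the highest cocaine count below 0.05 was 10 on chromosome 9 and 9 on chromosomes 4, 7, 8, 14, 17 and X. By that count chromosome 9 does not stand alone. Its window runs from Tipin to Anxa2, so it begins before Spg21 and covers only part of the stretch. After saline the same windows held 7 on chromosome 9 and 2, 3, 5, 1, 5 and 1 on the others, in that order. On chromosome 16 the window held 7 after cocaine and 7 after saline.

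**Figure D4:**
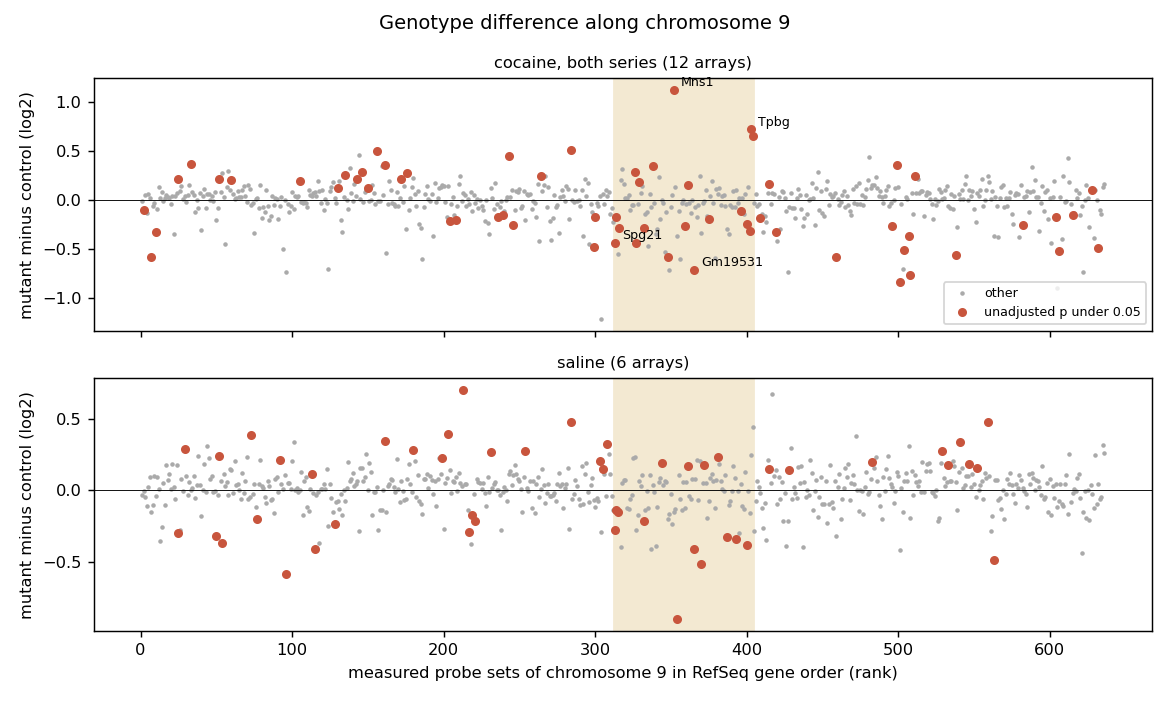
Mutant minus control difference (log2, y axis) of the tested chromosome 9 probe sets in RefSeq gene order (x axis), pooled after cocaine (top) and after saline (bottom), with probe sets of unadjusted p below 0.05 in red and the stretch from Spg21 to Tpbg shaded. Inside the shading 19 of 92 probe sets are red in the upper panel, among them the 4 agreeing ones, and 14 in the lower, with points both above and below 0.

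Around Camk4 itself, on another chromosome, the share was near that of all genes. Within 10 Mb of it 83 genes were measured, with a median of -0.00, and 3 were higher and 4 lower at an unadjusted p of 0.05, beside 345 higher and 217 lower of all 7548 genes (3 and 3 without mutant III, beside 252 and 204). The largest difference of those 7 was that of Dele1, a mitochondrial stress relay protein, at 0.36 ± 0.10 after cocaine and 0.01 after saline.

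The genes that cocaine and synaptic activity induce had mostly lower mutant means in the Arabic-numbered arrays, while in the Roman-numbered arrays the transcription factors were mostly above control and the effectors near it. Of 13 measured immediate early transcription factors, 11 had a mutant mean below control in the Arabic-numbered arrays, 6 of them at an unadjusted p below 0.05, with a median of -0.84. In the Roman-numbered arrays 1 of 13 was below control, 1 was higher at an unadjusted p of 0.05, and the median was 0.18 (4 of 13 and 0.16 without mutant III). Of all 7548 genes, taken with 1 probe set each, 3623 were below control in the Arabic-numbered arrays, 250 of them at such a p, and 2903 in the Roman-numbered arrays, 99 of them at such a p, with medians of 0.01 and 0.05. Of the activity-induced effectors 17 of 18 were below control in the Arabic-numbered arrays, 9 at an unadjusted p below 0.05, with a median of -0.57. In the Roman-numbered arrays 11 of 18 were below control, 0 at such a p, with a median of -0.04 (10 of 18 and -0.01 without mutant III). Pooled, the medians were -0.37 and -0.38, with 1 transcription factor higher (Jund, 0.21 ± 0.10) and 1 lower (Bhlhe40, -0.40 ± 0.11), and 0 effectors higher and 2 lower (Rgs2 and Gadd45g). Without mutant III the medians were -0.45 and -0.37, with 0 factors higher and 1 lower, and 0 effectors higher and 4 lower. At the adjusted threshold 0 members of either list passed in any of these fits.

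The individual genes show how far the spread among animals reaches. Fosb, a subunit of the AP-1 transcription factor, read 6.15, 8.00 and 8.25 in Arabic-numbered controls against 4.88, 6.48 and 6.42 in mutants, and 7.25, 6.23 and 6.33 in Roman-numbered controls against 6.87, 8.08 (III) and 7.27 in mutants. The lowest Arabic-numbered control lay among the mutants, and the differences were -1.54 ± 0.61 and 0.80 ± 0.40 (0.47 without mutant III). Egr2, a zinc finger immediate early factor, read 10.10, 11.49 and 11.55 against 8.36, 10.06 and 9.98, and 11.63, 11.15 and 11.34 against 11.16, 11.84 (III) and 11.66, or -1.58 ± 0.53 and 0.18 ± 0.20. Arc, a synaptic protein that drives endocytosis of AMPA receptors, read 10.07, 11.16 and 11.55 against 8.48, 10.44 and 10.34, and 10.72, 10.81 and 11.16 against 10.57, 11.39 (III) and 11.37, or -1.17 ± 0.56 and 0.21 ± 0.25. For Arc, as for Fosb, 1 Arabic-numbered control lay below the 2 higher mutants.

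Tiparp, an ADP-ribosyltransferase induced by activity, differed without any overlap in the first of these series, with 9.18, 9.86 and 10.10 against 7.86, 8.90 and 8.98 (-1.14 ± 0.33). In the other it stood at 10.04, 9.89 and 9.55 against 9.91, 10.25 (III) and 10.22 (0.30 ± 0.16). The difference between the series in the genotype effect was 2.34 ± 0.84 for Fosb, 1.75 ± 0.66 for Egr2 and 1.44 ± 0.43 for Tiparp, Roman minus Arabic. Each of these had a limma adjusted p of 0.847, so a difference between the series was not established for any single gene.

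Averaged over the 13 transcription factors, the Arabic-numbered controls were at 8.52, 9.26 and 9.65 and the mutants at 7.68, 8.70 and 8.66, so 1 control lay below the 2 higher mutants. The Roman-numbered controls were at 9.16, 8.97 and 9.06 and the mutants at 9.10, 9.61 (III) and 9.30. After saline the controls were at 7.55, 6.98 and 6.94 and the mutants at 6.73, 6.76 and 7.03, with a median difference over the genes of -0.23. Every cocaine array thus lay above every saline array, mutants included. Fos after saline was at -1.11 ± 0.35, beside -1.43 ± 0.80 and 0.29 ± 0.16 in the Arabic-numbered and Roman-numbered cocaine arrays.

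**Figure D5:**
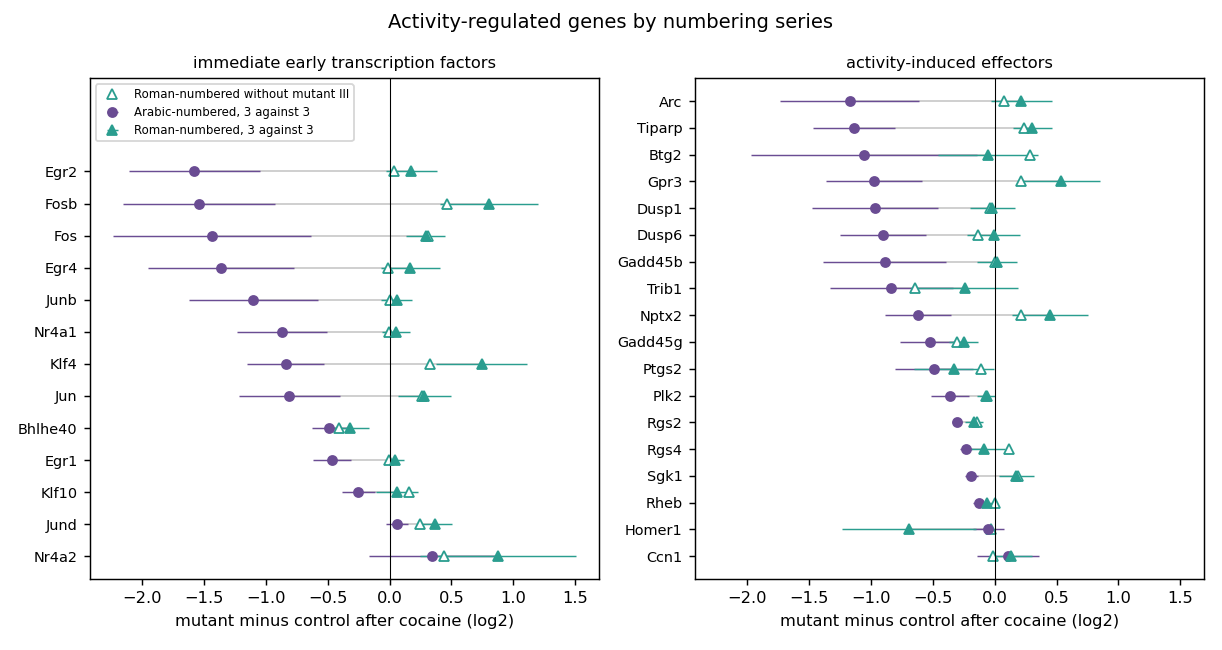
Mutant minus control difference after cocaine (log2, x axis) of immediate early transcription factors (left) and activity-induced effectors (right), with circles ± SE for the Arabic-numbered arrays, filled triangles ± SE for the Roman-numbered arrays and open triangles for the Roman-numbered arrays without mutant III. Most circles lie left of 0 and most triangles lie near it or to its right. Of the transcription factors 1 (Bhlhe40) lies left of 0 in both series, and of the 18 effectors 11 do, among them Gadd45g and Rgs2. Without mutant III these counts are 4 and 9.

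Bhlhe40, a basic helix-loop-helix repressor that is both activity-regulated and part of the circadian clock, and Rgs2 were the members on the same side in both series with small errors. Bhlhe40 read 9.65, 9.71 and 10.11 against 9.17, 9.30 and 9.54, and 10.11, 9.99 and 9.99 against 9.39, 9.91 (III) and 9.85, with no overlap in either series. After saline it read 8.91, 8.31 and 8.75 against 8.65, 8.45 and 8.35, which overlapped.

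Known CREB targets lay below control in the Arabic-numbered arrays and near it in the Roman-numbered ones. The pooled counts of this paragraph and the next 2 stand beside those of all 7548 genes. Of these, 345 were higher and 217 lower at an unadjusted p of 0.05, and 252 and 204 without mutant III. Of 16 measured CREB targets, 0 were higher and 1 was lower at such a p in the pooled comparison, with a median of -0.20 (-0.33 in the Arabic-numbered and 0.05 in the Roman-numbered arrays, and -0.27 pooled without mutant III, with the same counts). The lower one was Crem, which encodes CREB-related activators and the repressor ICER. It read 6.80, 7.05 and 6.82 against 6.44, 6.83 and 6.21, and 7.38, 7.10 and 7.43 against 7.02, 6.30 (III) and 7.10, for a difference of -0.45 ± 0.15 (-0.33 without mutant III). Of 20 measured kinases, phosphatases and factors of the CaMK and CREB pathway, 0 were higher and 3 lower, Camk4, Crem and Ppp2ca, the catalytic subunit of protein phosphatase 2A (-0.09 ± 0.03), with a median of -0.03. Without mutant III 0 were higher and 2 lower.

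Of 16 dopamine and cAMP pathway genes of spiny neurons, 0 were higher and 0 lower at an unadjusted p of 0.05 in the pooled comparison, with a median of -0.01, and without mutant III 0 were higher and 1 lower (Prkar1a, a regulatory subunit of protein kinase A). Within the series, 3 were lower in the Arabic-numbered arrays, Gnas (-0.14), Prkar1a (-0.16) and Arpp21 (-0.10), beside 250 of all 7548 genes. In the Roman-numbered ones 2 were higher, Drd2 (0.29) and Ppp1cc (0.11), beside 232 of all genes. Pooled values include Drd2, the D2 dopamine receptor (0.13 ± 0.07), and Ppp1r1b, the phosphatase inhibitor DARPP-32 (-0.01). Of 9 neuropeptide genes, 0 were higher and 0 lower with or without mutant III, with Pdyn, the dynorphin precursor, at -0.31 ± 0.16, Penk at -0.03 and Tac1 at -0.02. Of 14 RGS family genes, Rgs3 was higher (0.31 ± 0.10, and 0.27 without mutant III) and Rgs2 lower. Of 7 feedback inhibitors of MAP kinase signalling, Dusp14 was lower (-0.50 ± 0.15), and without mutant III Dusp6 and Spry2 were as well.

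Genes induced by glucocorticoids, which rise with handling and injection stress, again split by numbering series. All 15 measured had a mutant mean below control in the Arabic-numbered arrays, with a median of -0.23, beside 3623 of all 7548 genes. In the Roman-numbered arrays 2 did, with a median of 0.18 (6 and 0.09 without mutant III), beside 2903 of all genes (3499 without mutant III). Pooled, 0 of the 15 were higher and 1 was lower, Tsc22d3, the leucine zipper protein GILZ (-0.24 ± 0.09), and the median was -0.00. Without mutant III 0 were higher and 2 lower. Of 16 clock genes, 0 were higher and 2 lower, Bhlhe40 and Nr1d2 (-0.18 ± 0.08), and 1 higher and 2 lower without mutant III. Of 7 endothelial markers Ramp2 (0.39 ± 0.14) and Vwf (0.51 ± 0.22) were higher at an unadjusted p of 0.05, beside 345 of all 7548 genes. Ramp2 and Vwf were at 0.31 and 0.53 without mutant III. The mean of that list was 6.94 to 7.23 in Roman-numbered mutants against 6.74 to 6.92 in controls. Of 9 astrocyte markers, with Gja1 taken by its brightest probe set, 0 had an unadjusted p below 0.05.

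The start sites of the agreeing genes were searched for the cAMP response element, because CREB is the best known substrate of CaMKIV. Promoter windows of 300 bases were taken from RefSeq (GRCm38.p6) and both strands searched for the full element TGACGTCA and for its core TGACG, which also lies inside the full element. The core is present in 20.8% and the full element in 1.79% of 32851 RefSeq windows, which are not limited to the tested genes. Of the genes lower in both series 9 of 10 were matched, with 11 windows, of which 8 (72.7%) hold the core and 2 (18.2%) the full element. Of those higher 8 of 9 were matched, with 13 windows, of which 3 (23.1%) hold the core and 0 the full element. Of the genes that joined the list without mutant III, 2 of 4 windows of lower ones hold the core and 1 the full element. Of 5 windows of higher ones 0 hold either. These windows are few, some share a gene, and a match is not evidence that CREB binds there. The windows below are those of Rgs2, Ube2b and Spg21, all lower in mutants, with matches in capitals on either strand. Those of Rgs2 and Ube2b hold the core or the full element near the start site, and that of Spg21 holds neither. Ube2b left the list of agreeing genes without mutant III.
Rgs2, chr1:144004100-144004399, minus strand: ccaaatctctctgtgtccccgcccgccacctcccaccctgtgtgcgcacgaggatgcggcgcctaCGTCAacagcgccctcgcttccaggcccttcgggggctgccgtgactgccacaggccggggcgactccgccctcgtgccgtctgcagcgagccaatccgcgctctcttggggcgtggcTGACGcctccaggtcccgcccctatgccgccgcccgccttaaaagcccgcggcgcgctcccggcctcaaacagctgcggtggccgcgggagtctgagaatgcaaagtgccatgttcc
Ube2b, chr11:52000737-52001036, minus strand: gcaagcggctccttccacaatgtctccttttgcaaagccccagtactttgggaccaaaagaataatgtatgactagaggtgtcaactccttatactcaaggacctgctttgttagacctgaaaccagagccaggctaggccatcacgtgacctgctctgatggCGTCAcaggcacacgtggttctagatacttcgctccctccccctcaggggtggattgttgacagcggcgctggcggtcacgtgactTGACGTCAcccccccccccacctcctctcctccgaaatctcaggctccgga
Spg21, chr9:65460687-65460986, plus strand: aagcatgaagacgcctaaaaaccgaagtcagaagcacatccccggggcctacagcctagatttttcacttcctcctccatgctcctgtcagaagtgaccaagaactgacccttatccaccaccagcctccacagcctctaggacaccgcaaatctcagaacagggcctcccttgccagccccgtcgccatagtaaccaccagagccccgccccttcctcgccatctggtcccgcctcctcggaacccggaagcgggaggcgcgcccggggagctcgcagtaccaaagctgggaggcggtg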

How the data were processed

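Striatal RNA of 18 mice was hybridised to Affymetrix arrays, 1 animal per array. The values are log2 expression per probe set, produced by the authors with GCRMA in R 2.4.1, per the submitters' processing notes. GCRMA adjusts background by probe composition and normalizes between arrays, so dim values collect near a floor, and small differences among them are unreliable. Array depth has no count equivalent, and the number of arrays limits the precision.

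Affymetrix control probe sets were left out, and 12604 probe sets that exceeded 4 on the log2 scale in 3 or more of the 12 cocaine arrays were kept (11684 with 1 gene symbol in the GEO platform annotation, 405 with several and 515 with none, which are not named). Differences are mutant minus control from limma 3.58.1 (R 4.3.3, eBayes with trend, two-sided, Benjamini-Hochberg over all kept probe sets), pooled with numbering series as a term, within each series, and as a genotype by series contrast. Camk4 also had an exact permutation test within series. The pipeline was tested on simulated data. Lists use the probe set of highest mean level per gene. Named genes are Camk4, those agreeing in both series, those of smallest pooled p, list members of smallest p, and genes chosen after their values were seen where stated. The comparison, its rule and the gene lists were chosen with earlier results of these data known. Chromosome and gene order come from RefSeq, and the files name no build. Alternatives are other filters, an ordinary linear model, array weights, blocks, all 18 arrays, an actin covariate and leaving out each array. The p-values measure the spread between these animals.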

Additional observations from a re-analysis of the deposited data

Results flagged for a closer look

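In groups of 6 cocaine arrays, 99 named probe sets and the actin and Gapdh 3′ to 5′ differences were checked for 1 array far from the other 5. Of these 202 groups 12 held such an array, where chance gives about 1 in 20 for arrays of 1 uniform group. Each group here mixed both numbering series, whose levels differ, so the check can miss an array. The actin difference of mutant III, 3.59 against 1.63 to 2.45 in the other cocaine mutants, was not flagged. In the mutant group, mutant III stood apart for Tpbg (6.56, against 7.10 to 7.36 in the others), Csf1r (11.08, against 10.67 to 10.79) and Kdm5d (5.30, against 5.47 to 5.52). Other mutant arrays stood apart for Ptgs2 (4.35, against 2.89 to 3.34), Cck (7.20, against 8.39 to 9.09), Penk (13.94, against 13.82 to 13.86) and Prkcd (5.37, against 4.23 to 4.62). Among controls, single arrays stood apart for Egr2 (10.10, against 11.15 to 11.63), Jund (10.59, against 10.89 to 11.07), Rgs9 (12.37, against 11.97 to 12.06), Calb2 (5.63, against 4.84 to 5.11) and Csf1r (10.92, against 10.62 to 10.72). The low Egr2 control also has the lowest mean of the immediate early factors among the Arabic-numbered cocaine controls.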

How the results depend on the processing

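No probe set passed an adjusted p of 0.05 in the pooled comparison under any alternative run, and the smallest adjusted p was 0.0633 without mutant III, 0.0965 with array weights and 0.117 with all 18 arrays. Mutants and controls of the same replicate number had deviations that correlated between -0.103 and 0.31, not above 0.1 in every pair, so the numbers were not taken as pairs, and a replicate block gave 0 at the adjusted and 937 at the unadjusted threshold. The Arabic-numbered call was 2 with an ordinary linear model, 0 when both series shared 1 fit, and 1 to 3 when each array was left out. The agreeing probe sets numbered 2 at an unadjusted p of 0.01 in each series, and 8 (without control cocaine replicate 4) to 43 (without control cocaine replicate 2) when each array was left out. Without control cocaine replicate 2, 1 probe set passed for the genotype by series difference, and 0 to 1 did over all arrays left out. The Camk4 difference was -0.47 to -0.28 when each array was left out. Near-zero differences changed sign: Foxj1 was at 0.0094 with array weights and -0.0919 to 0.0549 when arrays were left out, Tac1 at -0.0413 to 0.0249, Prkcd at -0.0131 to 0.243 and Kdm5d at -0.0588 to 0.0417. The cause was not tested. With 3 against 3 arrays, differences near the median error are not detectable.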
